A study of Mus musculus with 12 samples.

Results

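The left ventricle of the mouse 1 day after transverse aortic constriction (TAC) was compared with the left ventricle 1 day after a sham operation. In TAC a ligature narrows the aortic arch, so the ventricle has to eject against a higher pressure. Here the ligature was tied over a 27-gauge needle that was then withdrawn, and the sham animals had the same operation without the constriction. The members are 2 of the 12 arrays of the series, 1 for TAC 1 day and 1 for its sham, chosen by their labels and not by measured values. The animals were Balb/c mice of 6 to 8 weeks, and 5 µg of total RNA per array was taken from the left ventricle. The other 10 arrays hold TAC and its sham at 1 week and at 1 month, myocardial infarction (MI) and its sham at 1 week and at 1 month, and angiotensin II and its control with saline vehicle, both by osmotic minipump, at 1 week. The series text places a 1 day harvest with MI, whereas the labels of both arrays used here place it with TAC, and the array labels were followed. Whether 1 array holds 1 animal or a pool is not given in the sources used here.

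A ventricle under sudden load responds within hours. Stretched cardiomyocytes switch on immediate early transcription factors and genes of the fetal heart, enlarge their capacity to make protein and rebuild the cytoskeleton, while damaged tissue releases chemokines that draw in neutrophils and monocytes. Collagen deposition, growth of fibroblasts and a lasting change of fuel use and electrical properties are known to follow over days and weeks.

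With 1 array a side there is no replicate and no test, so the size of each difference was set beside differences between controls. A gene was counted as 2-fold higher or lower when its log2 ratio of TAC over sham was at least 1 in size, the brighter of both signals exceeded 25.8, the median of all signals in the series, and the TAC array lay outside the range of all 6 control arrays (the sham at 1 day and 5 later controls). Signals are probe-set brightness in arbitrary units after scaling, and values under 4.53 were set to that floor. A gene at the floor on the dimmer array has only a lower bound for its fold. The series holds only 1 control at 1 day, so control differences come from the 3 controls at 1 week and the 2 at 1 month, which make 4 pairs of the same time. Each of these joins arrays of different series. In bulk tissue, a change in the number of cells of a type and a change in RNA per cell cannot be told apart.

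The TAC 1 day array stood apart from the other 11 before any gene was named. Over 11624 genes its log2 signals correlated with those of the other arrays at r = 0.913 to 0.936 (0.926 with its sham), whereas the 11 others correlated among themselves at 0.925 to 0.977 and the 6 controls at 0.961 to 0.977. The 2% trimmed mean signal was 106 for TAC and 118 for sham (105 to 131 over all arrays). The actin 3' to 5' ratio, which climbs as RNA degrades, was 1.23 for TAC and 1.30 for sham (1.18 to 1.33 over all arrays). The array's dap control probes gave a 5' to 3' ratio of 0.377 for TAC and 0.408 for sham, and 0.195 to 0.333 on the 8 arrays outside the 1 day and angiotensin II pairs. For the thr control probes these ratios were 0.488, 0.361 and 0.175 to 0.280. In the deposited table the TAC 1 day values carry more decimals than those of the other arrays. The part of these technical features in the results was not tested.

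Cell type markers placed both arrays in ventricular muscle. The summed signal of 7 cardiomyocyte markers was 72051 for TAC and 73654 for sham (75636 to 80681 in the 5 later controls), and Myh6, the main adult myosin heavy chain, was at 13151 and 13651. Neutrophil markers differed most: all 4 on the array were higher than in every control, with a sum of 1401 for TAC, 163 for sham and 53.8 to 311 in later controls, although Cxcr2 was at 9.11 and close to the floor. All 6 macrophage markers were higher than in the sham, 3 of them (Cd68, Cd14 and Fcgr1) above every control, with sums of 2888, 1807 and 1759 to 2877. Adgre1 (F4/80), a marker of mature macrophages, was at 116 against 92.2 and inside the later controls (95.1 to 168). Platelet markers summed to 641, 287 and 332 to 398. Pf4 was 564 of the TAC sum, and Ppbp (38.9) lay inside the later controls (25.4 to 47.3). Erythroid markers were lower, with sums of 105, 220 and 197 to 414 that came almost wholly from Alas2, an enzyme of haem synthesis, while the globin Hba-a1 was at the floor on both arrays. Sums were 7777, 8822 and 8300 to 10206 for 6 fibroblast markers, 2224, 2694 and 1761 to 2245 for 5 endothelial markers, and 8192, 9400 and 10163 to 11192 for 5 smooth muscle and pericyte markers. Lung markers (49.4 against 51.0) and thymus markers (22.3 against 30.4) gave little or no signal of neighbouring tissue. The 6 atrial markers summed to 6138, 3599 and 2573 to 5186, and Nppa, which the loaded ventricle also makes, was 4847 of that sum. Myl4 (507 against 493), Myl7 (467 against 534) and Sln (267 against 193) had clear signal, inside the later controls. Dkk3 was at 44.4 against 54.5, and the atrial ligand Bmp10 was at the floor on both arrays.

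Of 11624 genes, 663 were 2-fold higher in TAC 1 day (5.7%) and 744 were 2-fold lower (6.4%). Counts within each gene list are to be read beside these shares, which varied with brightness as given below. Between controls of the same time, 0.576% to 1.87% of genes were counted as higher and 0.972% to 1.8% as lower in 8 comparisons, although the limits were easier to pass there. At 4-fold or more there were 151 higher and 92 lower genes, and at 8-fold or more 42 and 19. The log2 ratios had an SD over genes of 0.77, against 0.48 to 0.51 in the control pairs and 0.50 in each of the later TAC pairs. With signals as deposited, 499 genes were higher and 1079 lower, because that choice moved the median of all genes from -0.07 to -0.23, so the share of higher genes among those counted went from 47.1% to 31.6%. The ratios also depended on brightness. In 5 equal bins from dim to bright the median log2 ratio was 0.16, -0.02, -0.08, -0.12 and -0.21, whereas the control pairs had medians of at most 0.06 in size in the brightest bin. In the dimmest bin they reached 0.16 in size, as large as in the TAC pair. Of 2325 genes in the dimmest bin 263 were counted as higher and 125 as lower. Of 2325 in the brightest bin these counts were 64 and 137. The shares over all genes are therefore only a rough measure for lists of mostly dim or mostly bright genes.

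**Figure D1:**
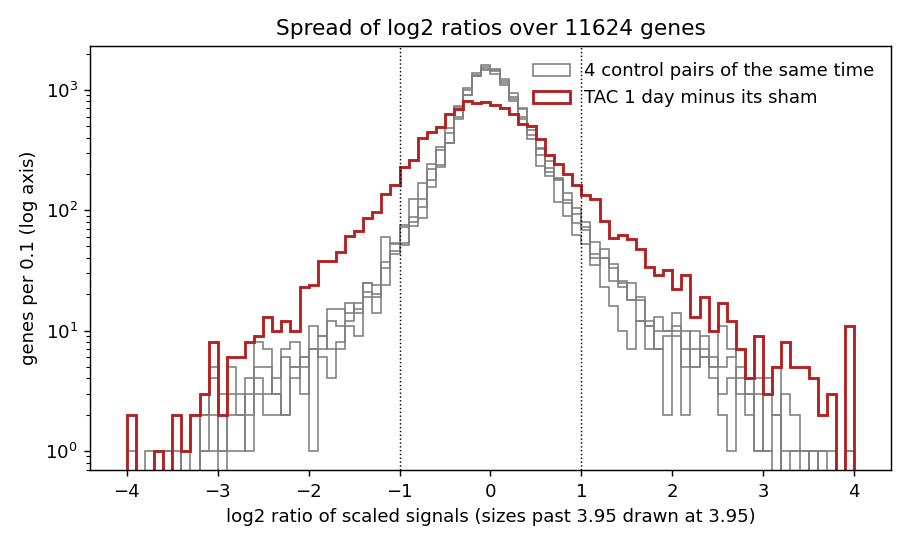
Number of genes (log axis) by log2 ratio of scaled signals, for TAC 1 day over its sham (red) and for the 4 pairs of control arrays of the same time (grey), over 11624 genes. The dotted lines mark 2-fold; the red curve is the widest, with an SD of 0.77 against 0.48 to 0.51.

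For some of the counted genes the sham at 1 day lay outside the later controls. Of the 663 higher genes, 210 had a sham signal below all 5 later controls and 80 above all of them, and 472 were also 2-fold over the mean of the later controls. Of the 744 lower genes, 234 had a sham signal above all later controls and 91 below, and 533 were also 2-fold under their mean. The positions of the sham follow in part from choosing genes by their ratio to it. That choice favours a low sham among higher genes and a high sham among lower genes. The shares over all genes are not given here, so these counts do not show whether the sham was unusual. A second probe set above the filter on dim genes was available for 259 of the higher and 311 of the lower genes. All other probe sets went the same way in 233 and 250 of these, and all were 2-fold in 132 and 103.

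The highest ratios belonged to matrix remodelling, growth control and leukocyte traffic. Timp1, an inhibitor of matrix metalloproteinases, had a signal of 3604 in TAC and 127 in sham, with 31.7 to 110 in the later controls, a 28.4-fold difference (log2 4.83). Myc, a transcription factor of growth, was at 249 against 9.26 (10.9 to 28.4 in later controls; log2 4.75). Tnc, the matrix glycoprotein tenascin-C, was at 848 against 36.8 (9.38 to 30.3; log2 4.53). In each of these 3 genes the TAC array lay above all 6 controls, as the counting rule requires. The difference also exceeded the range of the controls on the log2 scale.

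Cxcr6, a chemokine receptor of lymphocytes, was at 617 against 27.4 (17.8 to 22.7 in later controls). The monocyte chemoattractants Ccl2 (1000 against 50.1, log2 4.32), Ccl12 (306 against 15.6, log2 4.29) and Ccl7 (327 against 23.8, log2 3.78) followed. The sham was low for Ccl12, whose later controls lay at 41.9 to 128, so TAC was only 1.92 log2 units above their mean. S100a9, a calcium-binding protein of neutrophils, was at 829 against 49.0, with later controls from the floor to 131. Sele, the endothelial selectin that slows leukocytes, was at 88.6 against 5.21, and the later controls (12.3 to 33.4) put TAC 2.13 log2 units above their mean. Ch25h, which makes 25-hydroxycholesterol, was at 184 against 10.6, and Adamts4, a protease of proteoglycans, at 220 against 16.7. Serpinb1a, an inhibitor of neutrophil proteases, was at 357 against 26.6.

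The brightest of the 16 genes after Timp1 were of energy metabolism and growth arrest. Nmrk2, a muscle kinase that turns nicotinamide riboside into an NAD precursor, was at 2221 in TAC, 132 in sham and 66.4 to 146 in later controls (log2 4.08). Gadd45g, a stress and growth arrest gene, was at 1790 against 146 (95.0 to 134 in later controls), a 12.3-fold difference. Cytip (85.4), a regulator of leukocyte adhesion, and Serpinb9b (57.0) had a sham signal at the floor and were at least 18.9-fold and 12.6-fold higher than it. Their later controls reached 34.1 and 35.0.

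**Figure D2:**
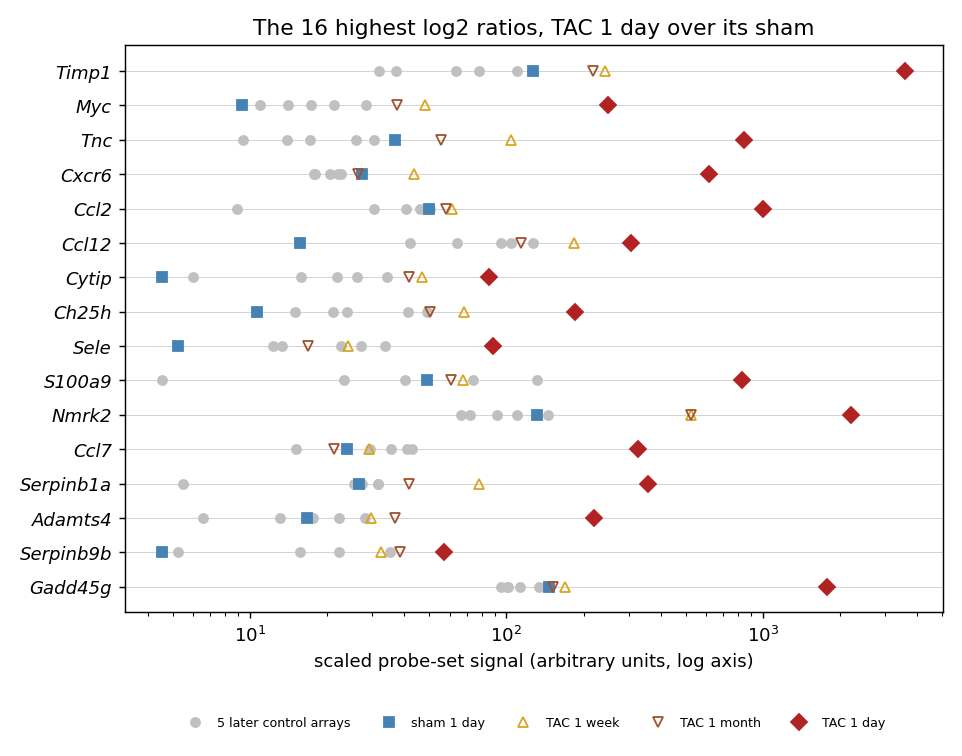
Scaled signals (log axis, arbitrary units) of the 16 genes with the highest log2 ratios among the 2-fold genes: TAC 1 day (red diamonds), sham 1 day (blue squares), the 5 later controls (grey circles) and TAC at 1 week and 1 month (open triangles), 1 array per point. The red diamond is the highest point in each of the 16 rows, from 57.0 for Serpinb9b to 3604 for Timp1.

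Most of the 12 lowest ratios were of dim genes. Mfsd4b1, Cmtm8, Blnk, Gsdmcl2, Dnph1 and Slc43a1 were at the floor in TAC, with sham signals from 38.4 for Slc43a1 to 70.3 for Mfsd4b1, so they have no order among themselves. A second probe set of Mfsd4b1 was at -0.42. Fbxo44, a substrate adaptor of ubiquitin ligases, was at 5.24 against 88.8 (34.1 to 68.1 in later controls). Mdga1 (4.97 against 45.6), Ahrr, a repressor of the aryl hydrocarbon receptor (5.01 against 44.8), and Ky, a protein of the muscle Z disc region (6.77 against 60.9), were near the floor as well. Klhdc8a was at 16.6 against 166, with a second probe set at -2.08. Palm, a membrane protein that shapes the cell surface, was at 24.9 against 216 (112 to 147), and its second probe set at -3.23 went the same way.

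Some brighter genes with low ratios were also read, chosen after their values were seen except Gpr22, which heads its list. Gpr22, an orphan receptor of the heart, was at 26.9 against 226, with later controls in the narrow range of 191 to 209, an 8.38-fold difference (log2 -3.07; second probe set -2.16). Ttll1, a tubulin-modifying enzyme, was at 382 against 2483 (1868 to 2526; log2 -2.70), but its second probe set was at -0.89. Fn3k, a kinase that removes sugar adducts from proteins, was at 18.3 against 151 (124 to 163). Asb10 was at 104 against 597 (457 to 522), with a second probe set at -2.44. Penk, the enkephalin precursor, was at 17.9 against 111 (143 to 181). In all 5 the TAC array was below every control by more, on the log2 scale, than the controls differed among themselves.

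To show what the promoters of higher genes hold, the 250 bases before each RefSeq start (GRCm38.p6) were searched on both strands for TGANTCA, the site of AP-1, the dimers of Fos, Jun and Atf family proteins that immediate early genes encode. It was found in 7.58% of the 528 promoters matched to higher genes, in 3.38% of 592 matched to lower genes, in 4.2% of 9382 matched to tested genes and in 6.87% of all 27025 promoters of the table. A match is a description of the letters and not of binding. Promoters of 4 higher genes of different kinds are printed with the match in capitals, 5' to 3'. They are those of the selectin Sele (chr1:164047984-164048233 on the plus strand), the chemokine Ccl9 (chr11:83578637-83578886 on the minus strand), the muscle protein Klhl40 (chr9:121777357-121777606 on the plus strand) and the metallothionein Mt2 (chr8:94172368-94172617 on the plus strand). The match begins 73, 53, 44 and 79 bases before the start.

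Sele promoter: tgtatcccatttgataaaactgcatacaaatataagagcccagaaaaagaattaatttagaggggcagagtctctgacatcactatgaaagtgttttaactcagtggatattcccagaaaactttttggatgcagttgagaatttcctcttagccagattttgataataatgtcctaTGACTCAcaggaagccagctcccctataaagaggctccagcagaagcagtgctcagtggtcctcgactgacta

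Ccl9 promoter: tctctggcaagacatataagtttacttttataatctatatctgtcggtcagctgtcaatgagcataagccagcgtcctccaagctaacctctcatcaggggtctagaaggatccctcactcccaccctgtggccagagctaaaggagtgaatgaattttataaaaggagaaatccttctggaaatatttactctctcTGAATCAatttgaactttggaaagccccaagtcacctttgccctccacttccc

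Klhl40 promoter: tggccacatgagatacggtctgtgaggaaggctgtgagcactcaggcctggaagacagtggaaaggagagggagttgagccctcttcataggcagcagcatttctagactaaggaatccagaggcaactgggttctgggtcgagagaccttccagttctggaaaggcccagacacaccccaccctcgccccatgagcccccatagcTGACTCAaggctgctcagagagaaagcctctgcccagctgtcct

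Mt2 promoter: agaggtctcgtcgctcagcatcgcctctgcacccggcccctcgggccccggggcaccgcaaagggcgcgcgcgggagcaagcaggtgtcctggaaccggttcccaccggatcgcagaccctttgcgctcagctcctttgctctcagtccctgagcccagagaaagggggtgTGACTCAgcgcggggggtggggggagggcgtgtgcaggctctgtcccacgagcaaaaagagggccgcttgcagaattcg

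All 22 measured fetal and hypertrophy genes had a ratio above 0, and 11 were 2-fold higher and 0 lower (5.7% and 6.4% of all genes). Their median log2 ratio was 0.97, against at most 0.11 in size between controls and -0.07 over all genes. It was 0.89 over the mean of the later controls. The largest bright differences were in genes of mechanical stress. Flnc, filamin C, which links the Z disc to the membrane, was at 5675 against 724 (340 to 487 in later controls; log2 2.97). Ccn2, a matricellular growth factor, was at 6725 against 1138 (711 to 1132; log2 2.56). Rcan1, whose calcineurin-driven form restrains calcineurin itself, was at 3219 against 795 (442 to 751; log2 2.02). In these 3 genes TAC was above the highest of the 6 controls by 4-fold or more.

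Fhl1, a LIM protein of the stretch response, was at 8063 against 2854 (log2 1.50; second probe set 3.49), and Xirp1, an actin-binding protein of the intercalated disc, at 2490 against 982 (log2 1.34). Enah, a promoter of actin assembly, was at 3674 against 1760 (log2 1.06). The tubulins Tubb2b (118 against 22.1, log2 2.41) and Tuba1a (2219 against 1035, log2 1.10) were higher. So were the progenitor filament Nes (164 against 37.3, log2 2.13), whose second probe set was at 0.41, and the dim ubiquitin hydrolase Uchl1 (30.8 against 12.6, log2 1.29; later controls 12.01 to 25.8).

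The classical natriuretic and myosin markers differed less. Nppa, atrial natriuretic peptide, was at 4847 in TAC, 2319 in sham and 1353 to 3067 in later controls (log2 1.06). It was counted as 2-fold higher, which requires a signal above all controls. Nppb, B-type natriuretic peptide, was at 10299 against 5965 (4698 to 7259; log2 0.79). Myh7, the slow fetal myosin, was at 1998 against 1353 (562 to 1082; log2 0.56), and the mean of the later controls lay 1.25 log2 units below TAC. Acta1, skeletal actin of the fetal heart, was at 11788 against 9760 (log2 0.27), and Ankrd1, a titin-associated stress protein, at 12493 against 8322 (9509 to 11409; log2 0.59). Signals of that size lie near the highest of the series, 14794.7 as deposited, where differences can be compressed. Csrp3 (0.50), Vim (0.88), Des (0.41), Acta2 (0.02) and Actc1 (0.11) did not reach 2-fold. Second probe sets gave 2.43 for Des and -1.18 for Acta2, so these probe sets disagree.

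Of 27 measured Z disc and mechanical stress genes 7 were 2-fold higher and 2 lower. Klhl40, a stabiliser of thin filament proteins, was at 1218 against 175 (96.8 to 174 in later controls; log2 2.80). Lmcd1, a LIM protein that acts on calcineurin signalling, was at 3060 against 609 (411 to 595; log2 2.33). Synpo2l, an actin-bundling protein of the Z disc, was at 8425 against 2722 (1703 to 2363; log2 1.63), and its 2 other probe sets were at 2.23 and 3.46. Ky was the lowest, at -3.17 and near the floor. The median of this list was 0.07, inside the difference between controls (0.15). Among 14 genes of the sarcomere list 0 were higher and 3 lower, with a median of -0.06 (controls up to 0.12): the myosin kinase Mylk3 was at 775 against 1720 (log2 -1.15), Myh7b at 88.5 against 203 (log2 -1.20) and Myh14, a non-muscle myosin, at 139 against 286 (log2 -1.04). The next largest ratio by size was that of Mybpc3, at -0.26.

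The actin and tubulin cytoskeleton was higher as a list: 13 of 31 measured members were 2-fold higher and 0 lower, with a median of 0.81 (controls up to 0.11). Besides Tubb2b, these included Tubb6 (1170 against 204, log2 2.52; second probe set -0.13), the actin crosslinker Actn1 (822 against 233, log2 1.82) and the leukocyte actin regulator Coro1a (401 against 88.7, log2 2.18). Of 20 integrin and focal adhesion genes 6 were higher and 2 lower, with a median of 0.32 (controls up to 0.08). Itga5, the fibronectin receptor chain, was at 991 against 195 (100 to 136 in later controls; log2 2.34), Itga7, a laminin receptor chain of muscle, at 1478 against 502 (log2 1.56), and Itgb2, the integrin chain of leukocytes, at 321 against 64.6 (log2 2.31).

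Of 27 measured immediate early genes 14 were 2-fold higher and 0 lower, and 26 had a ratio above 0. The median was 1.29, against at most 0.12 between controls, but the sham at 1 day lay 0.49 below the later controls by the same median. Over the mean of the later controls the median of TAC was 0.95. After Myc, among the 14 genes counted, the zinc finger factor Egr2 (46.2, sham at the floor, later controls 8.70 to 18.7), the stress factor Atf3 (438 against 54.3; 66.1 to 101) and the matricellular Ccn1 (2132 against 495; 332 to 521) had the highest ratios, with log2 values of at least 3.35 for Egr2, 3.01 for Atf3 and 2.11 for Ccn1. These TAC signals lay above all controls, as the counting rule requires.

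Egr3 (60.9 against 14.6, log2 2.06), the antiproliferative Btg2 (796 against 221, log2 1.85), Ier3 (1595 against 451, log2 1.82), Junb (261 against 88.3, log2 1.56), Maff (109 against 41.4, log2 1.40), Klf6 (569 against 220, log2 1.37), Csrnp1 (248 against 101, log2 1.29), Nr4a2 (62.9 against 27.5, log2 1.19), the mRNA-destabilising Zfp36 (447 against 198, log2 1.18) and Fosl2 (305 against 139, log2 1.14) completed the 14. Csrnp1 was at -0.16 with the mean of all its probe sets. The best-known members were not among them. Fos, the founding subunit of AP-1, was at 222 against 39.1 (log2 2.51), but a later control reached 233. Egr1 (449 against 140, log2 1.68), Nr4a3 (28.4, sham at the floor) and Ier5 (647 against 295, log2 1.13) likewise lay inside the later controls, which reached 500.5, 48.3 and 803.

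Jun (499 against 341, log2 0.55), Jund (0.16), Nr4a1 (0.33), Ier2 (0.64), Dusp1 (0.23), Dusp6 (0.90), Klf2 (0.01), Klf4 (-0.26) and Klf10 (0.10) stayed under 2-fold. For Jun the later controls lay at 450 to 927, so the TAC signal was inside them.

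Genes of ribosome assembly were higher. Of 47 measured members 16 were 2-fold higher and 0 lower, 43 had a ratio above 0, and the median was 0.78 (controls up to 0.11; 0.85 over the later controls). Rrp12, an export factor of ribosomal subunits, was at 307 against 61.8 (45.7 to 82.3 in later controls; log2 2.31). Gnl3, nucleostemin, a nucleolar GTPase, was at 717 against 243 (182 to 225; log2 1.56), Tsr1, a factor of small subunit maturation, at 473 against 161 (158 to 208; log2 1.55), and Ppan, a factor of large subunit maturation, at 146 against 53.9 (38.1 to 52.0; log2 1.44). All 4 were above every control, as the counting rule requires. The list held only 3 genes of the brightest bin, so it lies mostly outside the bin whose median was -0.21. CACGTG, the E-box that Myc and related factors bind, was found in 3 of the 40 promoters matched to this list (7.5%), against 8.46% of promoters of tested genes.

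Other genes of protein synthesis differed less. Of 26 genes of translation initiation and tRNA charging 2 were higher (5.7% of all genes were), Eif1a (438 against 132, log2 1.73) and Eif5 (2757 against 1170, log2 1.24), both of start codon selection. The median was 0.26 (controls up to 0.07). Of 21 cytosolic ribosomal proteins 0 were 2-fold higher or lower, 20 had a ratio above 0 and the median was 0.27 (controls up to 0.15). Rps19, at 3585 against 2326 (log2 0.62), was above all controls, the highest of which was 2424. For 32 proteasome subunits the median of 0.10 was inside the difference between controls (0.19).

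Polyamine and nucleotide synthesis held 4 higher genes of 17 and 0 lower. Srm, spermidine synthase, was at 511 against 144 (155 to 178; log2 1.83), Ctps, which makes CTP, at 1134 against 343 (366 to 488; log2 1.73), and Azin1, which frees ornithine decarboxylase from its inhibitor, at 1517 against 551 (459 to 568; log2 1.46). The list median, 0.14 (controls up to 0.11), was -0.02 with signals as deposited. Of 14 genes of the pentose phosphate and serine-folate pathways, Mthfd2 (109 against 32.8, log2 1.73) and Psat1 (138 against 47.8, log2 1.53) were higher.

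Of 16 integrated stress response genes, which cells use when translation is restrained, 5 were higher and 1 lower, with a median of 0.69 (controls up to 0.07; 0.32 over the later controls). Besides Atf3 these included the amino acid carrier Slc7a5 (84.5 against 27.2, log2 1.64) and the phosphatase subunit Ppp1r15a (478 against 179, log2 1.42). Vldlr, a lipoprotein receptor, was lower at 1682 against 3670 (log2 -1.13). Of 23 ER chaperone and unfolded protein response genes 1 was higher, Manf (1217 against 582, log2 1.06), and 1 lower, Herpud1 (649 against 1688, log2 -1.38). These counts are near the shares of all genes, 5.7% and 6.4%. Of 13 p53 and growth arrest genes 4 were higher and 0 lower, with a median of 0.50 (controls up to 0.05). Gadd45b was at 392 against 103 (log2 1.92) and Cdkn1a, the p21 inhibitor of the cell cycle, at 1133 against 437 (58.0 to 263 in later controls; log2 1.37).

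Metallothioneins are small proteins that bind zinc and copper, and 2 of the 5 measured genes of their list were higher and 0 lower, with a median of 1.00 (controls up to 0.15). Mt2 was at 6885 in TAC, 1027 in sham and 352 to 450 in later controls (log2 2.74), and Mt1 at 9691, 4587 and 2128 to 2377 (log2 1.08; second probe set 2.26). For both genes the sham at 1 day already lay above every later control, and TAC lay above the sham. TAC was thus 4.10 and 2.09 log2 units above the mean of the later controls. The zinc importer Slc39a14 was at 778 against 390 (log2 1.00, just under the limit), while the zinc exporter Slc30a1 (421 against 409) and the metal-sensing factor Mtf1 (77.4 against 121, log2 -0.64) did not reach 2-fold. The Mt2 promoter printed above also held 3 matches to TGCACNC or TGCGCNC, the core of the element that Mtf1 binds, at 223, 128 and 50 bases before the start. This core is in 30.5% of promoters of tested genes.

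Other stress-inducible genes gave a mixed picture. Of 21 heat shock genes 2 were higher and 1 lower, with a median of 0.46 inside the difference between controls (0.47). Hspb1, a small heat shock protein of muscle, was at 13801 against 6180 (5169 to 5923; log2 1.16), and Hsp90aa1 at 3310 against 1373 (1314 to 2270; log2 1.27). Hspa1b (1108 against 124) and Hspa1a (488 against 86.7), near-identical copies whose signals may be shared, had large ratios, but later controls reached 2545 and 568. Hmox1, which breaks down haem, was at 246 against 57.3 (44.6 to 63.9; log2 2.10). Of 23 genes of the antioxidant NRF2 pathway only Hmox1 and Maff were higher (5.7% of all genes were), and the list median was -0.12.

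Of 23 glucocorticoid-responsive genes 9 were higher and 1 lower, with a median of 0.69 (controls up to 0.40). Over the mean of the later controls the median was 0.34, which is inside that difference. Angptl4, an inhibitor of lipoprotein lipase, was at 1662 against 256, and the sham was already above the later controls (44.3 to 121). Fkbp5, a chaperone of the glucocorticoid receptor chosen after its value was seen, was at 746 against 272 (124 to 200; log2 1.46).

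Acute phase genes had the second highest list median, 1.99 (controls up to 1.32): 7 of 8 measured members were 2-fold higher and 0 lower. The filter on dim genes left out 12 of the 20 members on the array. It used the mean of all 12 arrays, TAC 1 day included, so a high TAC signal could help a dim gene to be kept. Serpina3n, a protease inhibitor, was at 2012 in TAC, 261 in sham and 37.9 to 118 in later controls (log2 2.95). Lcn2, an iron-scavenging protein also carried by neutrophils, was at 2305, 499 and 9.17 to 172 (log2 2.21). Hp, haptoglobin, was at 115 against 17.3 (6.11 to 33.1; log2 2.74) and the serum amyloid Saa3 at 191 against 41.0 (6.93 to 41.3; log2 2.22). For Serpina3n and Lcn2 the sham at 1 day exceeded every later control, so TAC stood 4.56 and 6.14 log2 units above the mean of these.

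The IL-6 family and JAK-STAT list, signalling that drives acute phase genes, held 9 higher and 1 lower gene of 19, with a median of 0.92 (controls up to 0.22). Clcf1, a cytokine of the family, was at 48.9 with the sham at the floor and later controls at 20.4 to 38.5, so that it was only 0.74 log2 units above the mean of the latter. Osmr, the receptor of oncostatin M, was at 1005 against 204 (177 to 297; log2 2.30), and Socs3, the feedback inhibitor of STAT3, at 625 against 84.1 (64.6 to 114; log2 2.89). The transcription factor Cebpd was at 797 against 183 (214 to 337; log2 2.12). Lifr, the receptor of leukaemia inhibitory factor, was the lower gene, at 240 against 499 (477 to 595; log2 -1.06), and was chosen after its value was seen.

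Chemokines and their receptors held 7 higher and 1 lower gene of 21. The list median was 1.78, with controls apart by up to 1.11, but 0.07 over the mean of the later controls, so only its leading members stood clear. Ccr2, the receptor of Ccl2, Ccl7 and Ccl12 on monocytes, was at 239 against 22.2 (14.6 to 38.7; log2 3.43). Ccl9 was at 1325 against 153 (96.7 to 209; log2 3.11), with its second probe set at 3.17. Ccl6 was at 1167 against 202 (log2 2.53). Cxcr4, the receptor of Cxcl12, was lower at 30.0 against 67.1 (48.7 to 82.3; log2 -1.16). Ccl9, Ccl6 and Cxcr4 were chosen after their values were seen.

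In the Toll-like receptor and IL-1 pathway 10 of 24 genes were higher and 0 lower, with a median of 0.92 (controls up to 0.35). Tnfrsf12a, the receptor of the cytokine TWEAK, was at 2370 against 438 (328 to 554; log2 2.43). Il1b, interleukin-1 beta, was at 118 against 38.1 (38.2 to 63.5; log2 1.63). Tlr13 was at 101 against 26.05 (23.3 to 52.8; log2 1.95) and Tlr1 at 49.9 against 16.8, with later controls from the floor to 40.9. TAC was above all controls in each of these 4, as the counting rule requires.

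Of 37 measured macrophage and monocyte genes 21 were 2-fold higher and 0 lower, and all 37 had a ratio above 0. The median was 1.54 (controls up to 0.71) and 1.05 over the mean of the later controls. Besides Ccr2, Lgals3, galectin-3, was at 633 against 60.1 (28.2 to 169; log2 3.40), Msr1, a scavenger receptor, at 207 against 20.8 (15.8 to 29.2; log2 3.31; other probe sets 3.97 and 4.13) and Thbs1, thrombospondin-1, at 330 against 36.3 (32.9 to 62.3; log2 3.18). Thbs1 and several other members of this list are made by other cells too. The summed macrophage and neutrophil markers given above were higher in TAC as well, and their part in the higher inflammatory lists was not tested.

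Among 8 measured neutrophil genes 5 were higher and 0 lower. The median of 2.35 was the highest of all lists, and it also had the widest control difference among these inflammatory lists, 1.55. It leaves out 13 of the 21 members on the array, which were below the filter on dim genes. A high TAC signal could help a dim gene to pass that filter, so the rank of this median is not free of it. S100a8, the partner of S100a9, was at 515 against 91.0 (22.2 to 170; log2 2.50), Csf3r, the receptor of the granulocyte growth factor, at 88.3 against 11.7 (8.28 to 32.4; log2 2.92) and Fpr2, a receptor of formyl peptides, at 138 against 18.5 (9.83 to 28.5; log2 2.90). Of 5 platelet genes Pf4 (564 against 262, log2 1.11) and Gp1bb (38.4 against 9.75, log2 1.98) were higher. The other members, Ppbp (1.33), Treml1 (-1.45) and Itga2b (-0.44), went both ways and were not counted. Pf4 is also on the list of macrophage and monocyte genes. Both measured erythroid genes, the anion exchanger Slc4a1 (11.8 against 37.2, log2 -1.66) and Alas2 (101 against 215, log2 -1.09), were lower. The platelet median was 1.11 over the sham and 0.11 over the mean of the later controls.

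By their list medians, interferon-induced and antigen presentation genes did not follow. Of 29 interferon-induced genes 1 was higher, Ifitm1 (167 against 68.0, log2 1.29), and 2 were lower, the antiviral Rsad2 (97.4 against 225, 213 to 399 in later controls; log2 -1.21) and the nucleotide kinase Cmpk2 (15.7 against 45.1, log2 -1.52). Their median was -0.32, inside the difference between controls (0.53), and -0.78 over the later controls. Zbp1 had the largest ratio of that list, at least 2.57 with the sham at the floor, but was not counted. The median of 10 MHC class II and dendritic genes (0.47) was inside the controls (1.44), as was that of 14 complement genes (0.23 against 0.76). Single members were still higher, beside 5.7% of all genes. In the first list 2 were higher, Ctss (1.54) and Cd86 (1.16), and 0 lower. In the complement list 3 were higher, C5ar1 (2.70), C3ar1 (1.30) and Masp1 (1.05), and 0 lower. Of 29 endothelial genes 3 were higher and 2 lower, beside 5.7% and 6.4% of all genes. The higher ones were the selectins Sele and Selp (85.7 against 26.4, log2 1.70) and the diaphragm protein Plvap (131 against 52.8, log2 1.31). The receptors Aplnr (354 against 1086, 810 to 1010 in later controls; log2 -1.62) and Kdr (367 against 743, log2 -1.02; chosen after its value was seen) were lower, and the endothelial median was -0.02.

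Matrix genes were unevenly affected. Of 35 matricellular and matrix glycoprotein genes, some of which signal to cells while others are structural, 14 were higher and 1 lower, with a median of 0.68 (controls up to 0.30). Besides Tnc, Thbs1 and Ccn2, Cd44, the receptor of hyaluronan, was at 645 against 85.9 (53.5 to 101; log2 2.91), Tgfbi at 946 against 152 (103 to 158; log2 2.64) and Fn1, fibronectin, chosen after its value was seen, at 1313 against 249 (239 to 406; log2 2.40). Of 22 matrix proteases and inhibitors 8 were higher and 0 lower, with a median of 0.47 (controls up to 0.34). Adam12, a membrane protease that frees growth factors, was at 169 against 14.9 (from the floor to 36.4; log2 3.51). Mmp12, the macrophage elastase, was at 54.4 with the sham at the floor, but inside the later controls, which reached 55.4.

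In TGF-beta, activin and BMP signalling 5 of 26 genes were higher and 0 lower, while the median was -0.17 and so opposite to the genes counted. Inhba, the activin A chain, was at 114 against 10.8, with later controls at 44.9 to 62.3 (log2 3.40 over the sham and 1.21 over the mean of the later controls). Fstl3, which binds activin, was at 551 against 73.8 (31.7 to 48.4; log2 2.90), and Tgfb2 at 479 against 79.9 (49.5 to 74.1; log2 2.58). Among 28 growth factor ligands, Hbegf, a ligand of the EGF receptor, was at 1791 against 292 (248 to 283; log2 2.62), and Angpt1, the ligand of Tek, at 46.0 against 143 (171 to 224; log2 -1.64). Vegfa was at 336 against 741 (619 to 864; log2 -1.14), with a second probe set at -0.37.

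Collagens had a median of 0.68 (controls up to 0.27), with 4 of 17 higher and 1 lower. Col8a1, a short-chain collagen, was at 867 against 311 (332 to 419; log2 1.48) and Col5a2, which nucleates fibrils, at 1068 against 458 (384 to 579; log2 1.22). Col1a1, the main fibrillar chain and also chosen after its value was seen, was at 659 against 437 (308 to 688; log2 0.59; second probe set 1.38) and inside the controls. Col14a1, a fibril-associated collagen, was lower at 51.6 against 113 (155 to 247; log2 -1.13). Lox, which crosslinks collagen, was at 579 against 61.3 (16.05 to 48.5; log2 3.24). Of 24 fibroblast identity genes 1 was higher, Mfap5 (2029 against 474, log2 2.10), and 4 lower, with a median of -0.37 (controls up to 0.22). The lower ones included Islr (90.7 against 296, 286 to 359 in later controls; log2 -1.71), Scara5, a ferritin receptor (156 against 453; log2 -1.53), and Htra3, a secreted protease (288 against 977; log2 -1.76).

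Ion channel genes were lower as a group. Of 18 measured potassium channel genes and subunits 9 were 2-fold lower and 0 higher (6.4% and 5.7% of all genes). The median of -0.82 was the lowest of the 57 lists with 4 or more measured members, against at most 0.19 in size between controls, and -0.87 over the mean of the later controls. Kcnip2, the subunit that carries Kv4 channels of the transient outward current to the membrane, was at 329 in TAC, 1386 in sham and 1254 to 1644 in later controls (log2 -2.07). The Kv4 channels themselves, Kcnd2 (73.6 against 274, 300 to 367; log2 -1.90) and Kcnd3 (57.9 against 132, 96.1 to 146; log2 -1.18), were lower as well. In these 3 genes TAC lay below all 6 controls, as the counting rule requires.

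Kcnk3, the background channel TASK-1, was at 235 against 1244, and the sham was above the later controls (523 to 822), so the log2 ratio was -2.41 over the sham and -1.53 over their mean. Kcnj3 (45.6 against 199, 177 to 225; log2 -2.12) and Kcnj5 (94.1 against 270, 152 to 280; log2 -1.52) encode the acetylcholine-gated channel. Kcnh2, the channel of the rapid delayed rectifier, was at 145 against 403 (352 to 440; log2 -1.48), Kcne1, a subunit of the slow one, at 45.6 against 129 (52.0 to 115; log2 -1.50), and Abcc9, the regulatory subunit of ATP-sensitive channels, at 1522 against 3182 (3144 to 3452; log2 -1.06). Kcnd3, Kcnj5, Kcnh2 and Kcne1 were named after their values were seen.

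Of 9 sodium channel, connexin and pacemaker channel genes 4 were lower and 0 higher, with a median of -0.42 (controls up to 0.08). Hcn2, a pacemaker channel, was at 30.4 against 95.1 (65.7 to 96.7; log2 -1.65), Scn4b, a sodium channel subunit, at 179 against 501 (401 to 595; log2 -1.49), the membrane anchor Ank2 at 246 against 599 (602 to 709; log2 -1.28) and the channel regulator Fgf13 at 496 against 1111 (log2 -1.16). Of 20 calcium cycling genes 2 were lower, Jph2, which ties T-tubules to the reticulum (723 against 1723, 1002 to 1410; log2 -1.25; second probe set -0.16), and the channel subunit Cacnb2 (318 against 701, 664 to 782; log2 -1.14). Of all genes 6.4% were lower. The calcium pump Atp2a2, named after its value was seen, was at 10305 against 10693. The calcium list median was -0.19 (controls up to 0.05), close to the -0.21 of all genes in the brightest bin, which held 13 of its members.

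Fuel genes were lower by smaller steps, and most lay in the brightest bin, whose median over all genes was -0.21: 22 of the 27 genes of glycolysis and glucose uptake, 26 of the 34 of fatty acid use and 18 of the 22 that burn ketones and branched-chain amino acids. Of 27 genes of glycolysis and glucose uptake 3 were lower and 0 higher, with a median of -0.42 (controls up to 0.08). Slc2a4, the insulin-sensitive glucose carrier GLUT4, was at 589 against 2225 (1700 to 2239; log2 -1.92; second probe set -1.46), Gys1, glycogen synthase of muscle, at 147 against 471 (259 to 422; log2 -1.68) and Pfkfb2, which sets the activator of glycolysis, at 71.2 against 195 (264 to 386; log2 -1.45). Of 34 genes of fatty acid uptake and oxidation 5 were lower and 1, Angptl4, higher, with a median of -0.35 (controls up to 0.14) and -0.17 over the later controls. Ppara, the fatty acid sensor, was at 165 against 484 (338 to 472; log2 -1.55) and Ppargc1a, a coactivator of mitochondrial genes, at 224 against 537 (477 to 621; log2 -1.26), with 4 further probe sets from -1.42 to -1.08.

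Neither the oxidative phosphorylation list nor that of the TCA cycle held a 2-fold gene. For 38 oxidative phosphorylation genes 36 ratios were below 0, with a median of -0.18 (controls up to 0.13). All 38 lay in the brightest bin, where the median of all genes was -0.21, so this list did not stand below genes of its brightness. All 16 genes of the TCA cycle, also all in that bin, had a ratio below 0, with a median of -0.38. Of 22 genes of ketone and branched-chain amino acid use 2 were lower, the phosphatase Ppm1k that activates branched-chain breakdown (403 against 1209, 1053 to 1261; log2 -1.59; second probe set -0.33) and Dbt, a core subunit of that dehydrogenase (310 against 676, 555 to 627; log2 -1.13). Of all genes 6.4% were lower. The median of the ketone and branched-chain list was -0.59 (controls up to 0.17).

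In the list of creatine kinases and NAD synthesis 1 gene was higher and 3 were lower. Its median was -0.75 (controls up to 0.12), with 12 of 13 ratios below 0 and Nmrk2 at 4.08. Ak1, adenylate kinase, was at 1144 against 2591 (2111 to 2462; log2 -1.18), and Nmnat3, which completes NAD in mitochondria, at 31.8 against 81.9 (52.8 to 96.6; log2 -1.37). Nmrk1, the widely expressed relative of Nmrk2, was at 16.8 against 35.4, with a second probe set at 0.38.

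**Figure D3:**
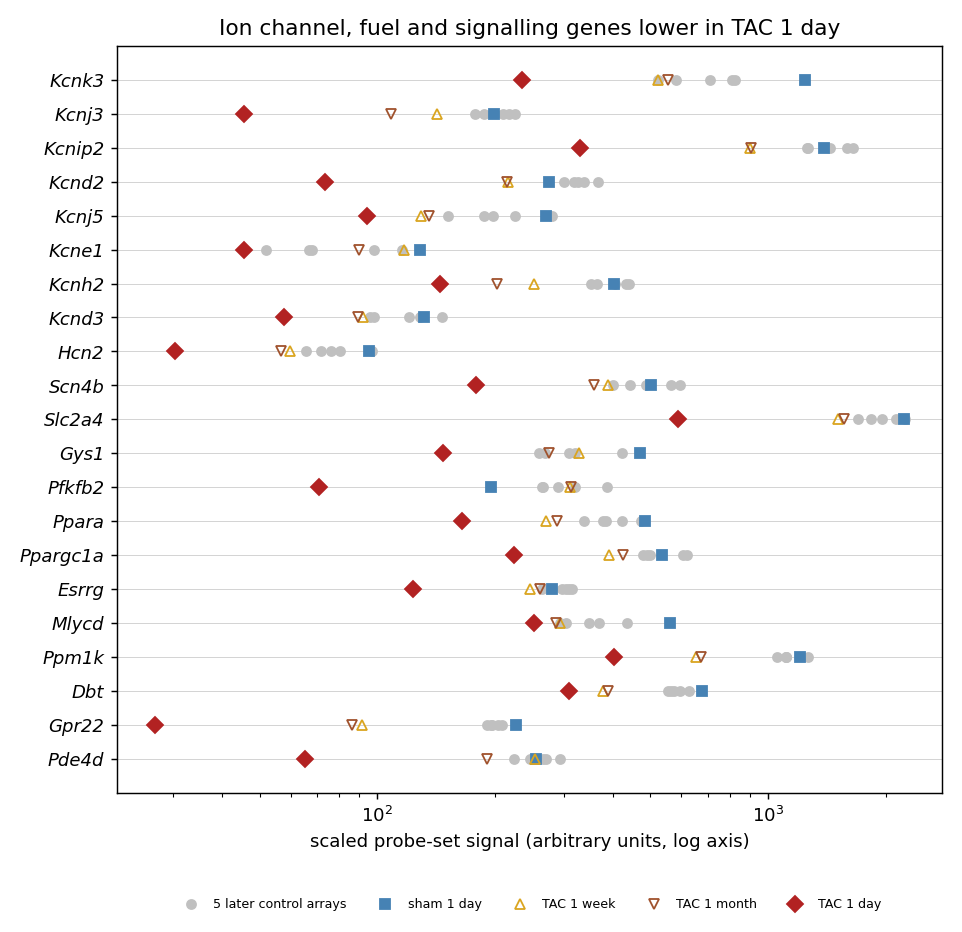
Scaled signals (log axis, arbitrary units) of 21 channel, fuel and signalling genes chosen after their values were seen, with TAC 1 day (red diamonds), sham 1 day (blue squares), 5 later controls (grey circles) and TAC at 1 week and 1 month (open triangles), 1 array per point. The red diamond lies lowest in each row; for Gpr22 it is at 26.9 and its controls are at 191 to 226, and for Slc2a4 at 589 and 1700 to 2239.

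Among 18 genes of adrenergic and cAMP signalling 3 were lower and 1 higher, with a median of -0.42 (controls up to 0.08). The phosphodiesterases went opposite ways: Pde4d, which shapes cAMP near the calcium release channel, was at 65.2 against 255 (224 to 294; log2 -1.97), and Pde4b at 651 against 243 (182 to 282; log2 1.42), although a further Pde4b probe set was at -0.17. Rgs2, a brake on Gq signalling, was at 126 against 283 (139 to 262; log2 -1.17). For 18 muscle ubiquitin ligase and autophagy genes the median was -0.39 (controls up to 0.13), with only the autophagy kinase Ulk1 2-fold lower (210 against 444, 259 to 446; log2 -1.08).

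Circadian output genes were low, in lists whose controls also varied. The D-box factors Dbp (303 against 1137; log2 -1.91) and Hlf (29.0 against 92.6; log2 -1.68) and the clock gene Per3 (24.7 against 65.4; log2 -1.41) were lower. Nfil3, a repressor that binds the same D-box, was higher (141 against 62.8; log2 1.17). The later controls lay at 466 to 2046 for Dbp and 64.6 to 188 for Per3, and controls of the same time differed by up to 1.57 and 1.54 log2 units. The list median of -0.23 over 16 genes was inside the difference between controls (0.60). The Per3 promoter (chr4:151044666-151044915 on the minus strand) is shown because, of 14 promoters matched to clock genes, it was the one with the D-box TTATGTAA, which Dbp, Hlf and Nfil3 bind. The motif is in 0.416% of promoters of tested genes and begins here 205 and 158 bases before the start, in capitals.

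Per3 promoter: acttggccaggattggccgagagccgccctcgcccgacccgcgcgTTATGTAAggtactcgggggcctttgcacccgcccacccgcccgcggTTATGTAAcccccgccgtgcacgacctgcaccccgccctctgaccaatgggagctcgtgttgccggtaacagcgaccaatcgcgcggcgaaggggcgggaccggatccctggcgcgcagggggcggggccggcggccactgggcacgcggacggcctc

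Across all 57 lists with 4 or more measured members, 25 medians were above 0 and 14 below 0 by more than the largest difference between controls, and 18 were inside it. This tally makes no allowance for brightness, and some lists share members. The 14 include oxidative phosphorylation, which did not stand below genes of its brightness. The 25 include the chemokine and platelet lists, whose medians were 0.07 and 0.11 over the later controls. Cell cycle genes were inside the difference between controls (median 0.07 over 23 genes, controls up to 0.55). Mcm5, a helicase subunit, was higher (90.9 against 33.5, log2 1.44), and Mki67, the proliferation antigen chosen after its value was seen, was at 18.6 against 21.1.

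**Figure D4:**
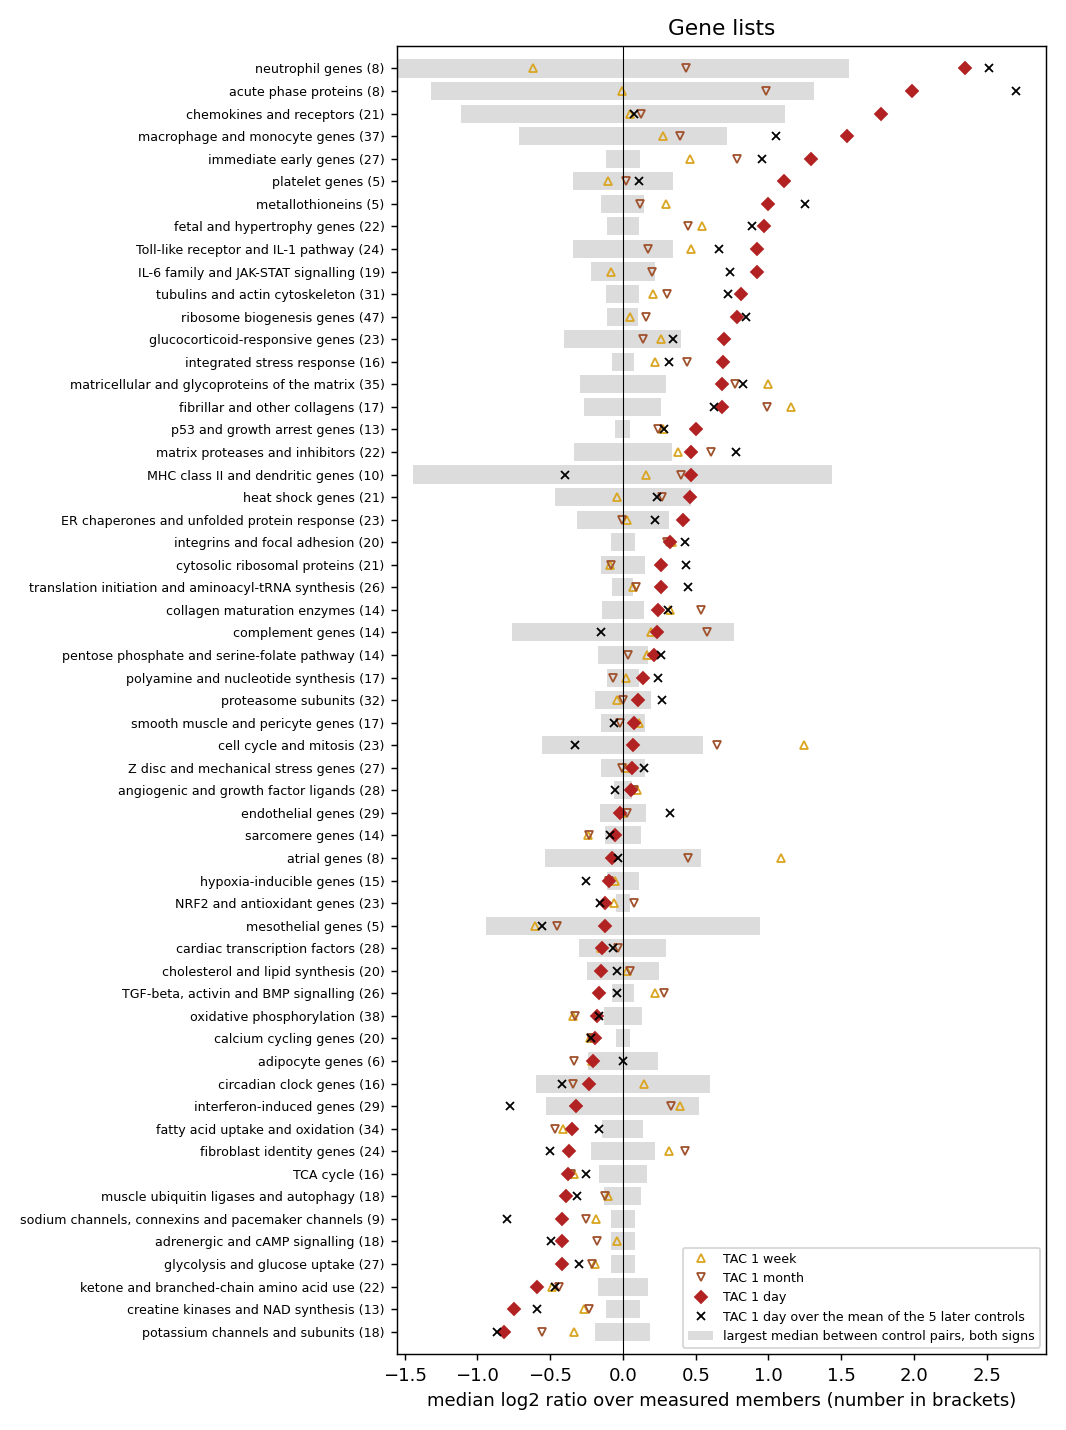
Median log2 ratio of each gene list with 4 or more measured members for TAC 1 day over its sham (red diamonds), TAC 1 day over the mean of the 5 later controls (crosses) and TAC at 1 week and 1 month over their shams (open triangles); grey bars give the largest median between control pairs of the same time, drawn in both signs. Neutrophil (2.35) and acute phase (1.99) genes lie at the top and potassium channels (-0.82) at the bottom, while the chemokine cross lies at 0.07.

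The later TAC pairs show how much of the 1 day picture was present at other times. These pairs share no array, but a gene was counted at each time only if TAC lay outside the same 6 controls. The counted lists thus rest in part on the same arrays, and no difference between times was tested. In TAC 1 week 253 genes were 2-fold higher (2.18%) and 96 lower (0.826%), and in TAC 1 month 222 (1.91%) and 147 (1.26%). Of the 663 higher genes at 1 day, 72 were also higher at 1 week (10.9% of the 1 day list and 28.5% of the 1 week list) and 68 at 1 month (10.3% and 30.6%), with 34 higher at all 3 times. Of the 744 lower genes, 24 were also lower at 1 week (3.23% and 25%) and 44 at 1 month (5.91% and 29.9%), with 12 lower at all 3 times. Opposite directions were counted too: 2 of the higher genes were 2-fold lower at 1 week and 3 at 1 month, and 13 of the lower genes were 2-fold higher at 1 week and 6 at 1 month. The 1 day higher genes had a median log2 ratio of 1.45 at 1 day, 0.33 at 1 week and 0.32 at 1 month, and the lower genes -1.33, -0.23 and -0.23.

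Groups differed in how their values ran over the 3 times. For ribosome biogenesis the medians were 0.78, 0.05 and 0.16, and Rrp12 was at 2.31, 1.04 and 0.57. For the IL-6 family they were 0.92, -0.08 and 0.20, with Socs3 at 2.89, -0.16 and 0.84, and Ccl2 ran 4.32, 0.28 and 0.53. Myc was at 4.75, 1.19 and 1.41. Collagen genes ran the other way, with medians of 0.68, 1.16 and 0.99, and Col1a1 at 0.59, 2.22 and 2.00. Nppa (1.06, 2.42 and 2.29) and Myh7 (0.56, 2.23 and 1.58) also had higher ratios at the later times, as did Postn, a matricellular protein of activated fibroblasts chosen after its values were seen (1.87, 2.71 and 2.71), and the cell cycle list (0.07, 1.24 and 0.65).

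Other genes kept 1 direction throughout. Nmrk2 was at 4.08, 2.52 and 2.87, Tnc at 4.53, 2.89 and 0.88, and Lox at 3.24, 2.88 and 1.50. Lower at every time were Gpr22 (-3.07, -1.19 and -1.15), Penk (-2.63, -1.53 and -1.61) and Kcnip2 (-2.07, -0.68 and -0.87), the last with ratios under 2-fold at the later times. Potassium channel medians were -0.82, -0.34 and -0.55. Oxidative phosphorylation medians were -0.18, -0.35 and -0.33, and those of fatty acid genes -0.35, -0.41 and -0.47, so neither was lowest at 1 day. Fibroblast identity genes changed sign, with medians of -0.37, 0.32 and 0.42, and Islr ran -1.71, 0.90 and 0.74.

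**Figure D5:**
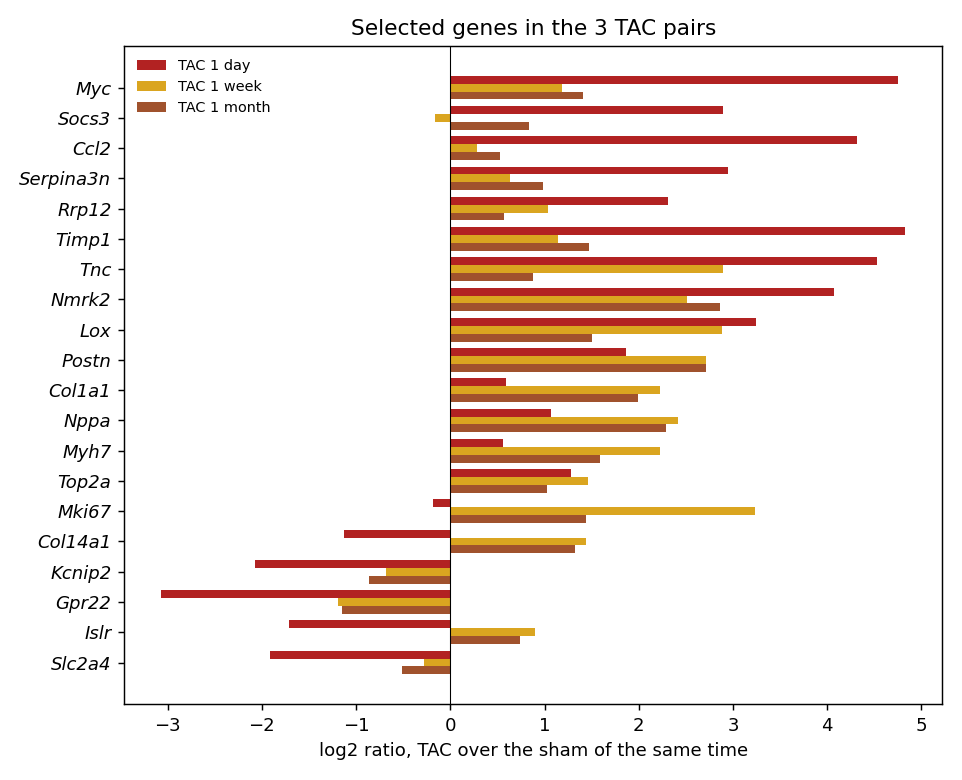
Log2 ratio of TAC over the sham of the same time for 20 genes at 1 day (red), 1 week (yellow) and 1 month (brown), 1 array per side, chosen after their values were seen to show different courses. Myc (4.75) and Ccl2 (4.32) have the longest bar at 1 day, Col1a1 (2.22) and Mki67 (3.23) at 1 week, and Col14a1 and Islr change sign.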

How the data were processed

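Total RNA of left ventricles was measured on 12 Affymetrix arrays of 1 colour, 1 per group, and arrays give no depth, so their number limits the precision. The authors deposited intensity, a linear probe-set signal on each array. GCOS is named in the submitters' processing notes, whereas how the signals were computed and scaled is not given in the sources used here. Groups follow the array labels, and the titles tie each sham to its series.

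Signals were scaled to a common 2% trimmed mean (factors 1.07 for TAC 1 day, 0.965 for its sham and 0.870 to 1.08 over all arrays), raised to a floor at the 20th percentile of all values (4.53) and put on a log2 scale. Of 45101 probe sets 34958 had 1 gene symbol in the platform's annotation, 932 had several and 9211 were not listed there, and 34754 were found by Entrez identifier in RefSeq with 0 symbols differing. The brightest probe set stood for a gene. Of 18194 genes, 11624 with a mean log2 signal above the 40th percentile (18.0) were analysed. The floor held 0.490% of these genes' values in TAC 1 day and 0.361% in its sham. No test was run. The ratio and signal limits of the counting rule were checked on simulated data, with large differences added to bright genes and little noise. The condition on the control range was left out there. The check therefore does not cover that condition, dim genes, differences near 2-fold or the spread seen between controls.

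Named by rule were the 16 highest and 12 lowest ratios among the 2-fold genes, up to 4 measured members of each of 62 lists with the largest ratio by size (5 lists had fewer than 4 measured), and all fetal, immediate early and metallothionein genes. Members, lists and rules were chosen with earlier results of these data known. Lists, and the signals of a list's members, are described by counts and medians. Alternatives were the scaling, the floor, the probe set rule, the filter, the control range and the reference arrays. Promoters come from RefSeq (GRCm38.p6), which held 9382 of the analysed genes. Python 3.11.15, numpy 2.4.6, pandas 2.3.3 and matplotlib 3.10.9 were used.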

Additional observations from a re-analysis of the deposited data

Results flagged for a closer look

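Col14a1, a collagen bound to fibrils, went opposite ways in the TAC pairs. Its log2 ratio of TAC over sham was -1.13 at 1 day, and 1.44 at 1 week and 1.32 at 1 month, each counted as 2-fold. It drew attention because both directions passed the same limits under the same operation. Each value rests on 1 array a side, and the difference between the times was not tested. A second probe set of Col14a1 was at -0.64 at 1 day.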

How the results depend on the processing

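The counts of 663 higher and 744 lower genes stayed within 1.5 times under all 9 alternatives. They were 499 and 1079 with no scaling, 615 and 767 with quantile normalization, 662 and 743 with a floor at the 10th percentile and 671 and 698 with one at the 40th, 618 and 602 averaging all probe sets, 845 and 759 without a filter on dim genes, and 797 and 787 without the condition on the control range. With the mean of the other 5 controls as the reference they were 634 and 825, of which 472 and 519 were among the main genes. Similar totals thus did not mean the same genes. Of those counted when averaging all probe sets 481 and 488 were among the main genes, and of those with quantile normalization 599 and 684. Without genes at the floor, a choice added after seeing the data, the counts were 653 and 727. Sign changes were counted only for named genes that were 2-fold and for list medians beyond the difference between controls. Other, smaller values may have changed sign without being counted. The 2 counted cases were these: the median of polyamine and nucleotide synthesis was -0.0163 without scaling, and the log2 ratio of Csrnp1 was -0.157 averaging its probe sets. The causes were not tested. Among list medians 63 of the other values moved by more than the difference between controls and 335 did not. Among ratios of named genes 161 values moved by more than their difference between controls and 1781 did not.

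With 1 array a side, neither the spread between animals nor that between hybridisations at 1 day is known, and leaving out a replicate is not possible. Differences of dim genes rest on signals close to the floor. No paired analysis was possible because each group has 1 array and the labels give no replicate numbers.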
